A study of Homo sapiens with 12 samples.

Results

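The expression of 10 genes that keep the redox balance of the cell was described in RD cells, a line from an embryonal rhabdomyosarcoma, a tumour of the skeletal muscle lineage. The genes were GLRX, TXN, TXNRD1, PRDX1, PRDX6, GCLM, GCLC, HMOX1, NQO1 and SOD2. A gene was measured through the probe sets of the U133A array whose annotation gives that symbol and no other. By this rule 9 of the 10 genes had 15 probe sets, out of 11963 genes with such a probe set. All 15 probe sets passed the filter on low signal. The 4 probe sets of SOD2, the mitochondrial superoxide dismutase, also carry the symbol SOD2-OT1, so SOD2 has no value here. The genes were chosen by name from earlier results of these same arrays, in which the GLRX change was known. Member values are therefore a description, with no p-value, and nothing is read from how many of them passed a threshold.

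The 12 arrays formed 4 groups of 3. RD cells transduced with PAX3-FKHR-ER were cultured with 30 nM 4-hydroxytamoxifen (4-OHT) or without it, and RD cells transduced with the vector pK1 were cultured with 4-OHT or without it. Exposure lasted 24 h. PAX3-FKHR-ER joins the fusion transcription factor of alveolar rhabdomyosarcoma to a modified estrogen receptor domain that 4-OHT activates. The pK1 cells with 4-OHT therefore show what the ligand did without the fusion, and the model is a fusion gene introduced into 1 line of the other tumour type. The labels name no vehicle for the cells without 4-OHT. The design text speaks of 3 populations per construct, and the labels do not say whether a replicate number marks a population, so the spread between arrays may be partly technical.

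Cells remove peroxides through linked thiol systems. Thioredoxin (TXN) passes electrons to peroxiredoxins and other proteins and is recharged by thioredoxin reductase (TXNRD1) at the cost of NADPH. Glutaredoxin (GLRX) uses glutathione to reverse the attachment of glutathione to protein cysteines. Glutathione is made in a rate-limiting step by glutamate-cysteine ligase, of which GCLC is the catalytic and GCLM the modifier subunit. Many of these genes, with HMOX1 and NQO1, are known targets of the transcription factor NRF2, which binds antioxidant response elements.

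RefSeq promoters (GRCh38.p14) were held for 7 of the 10 genes, in 11 entries. HMOX1, PRDX1 and PRDX6 are named only. The 250 bases before each start were searched on both strands for the core of the antioxidant response element, TGACNNNGC (GCNNNGTCA on the other strand). It was found in 3 entries of 2 genes, GCLM and TXNRD1, and in 10.9% of 35116 promoters searched in the same way. The motif TGANTCA, which the factor AP-1 binds, was in none of the 11 entries and in 6.57% of the 35116, and no match overlapped one of the other kind. The stretches around the 3 matches are shown because these genes are the members whose windows hold the element, with the match in capitals.
GCLM, chr1:93909441-93909479, minus strand: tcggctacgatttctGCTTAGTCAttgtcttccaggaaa
TXNRD1, entry 1, chr12:104215665-104215703, plus strand: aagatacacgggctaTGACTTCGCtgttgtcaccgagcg
TXNRD1, entry 2, chr12:104286915-104286953, plus strand: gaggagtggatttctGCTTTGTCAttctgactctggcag
The GCLM match, TGACTAAGC on the opposite strand, lay 34 to 26 bases before the start. The TXNRD1 matches lay 99 to 91 and 102 to 94 bases before theirs, and the second reads TGACAAAGC on the opposite strand.
The upstream 250 bases of GLRX, the member with the largest 4-OHT change, hold neither motif and are 46.4% G or C. The gene lies at chr5:95813849-95822726 on the minus strand. Of the other members, GCLM lies at chr1:93885199-93909430, PRDX1 at chr1:45511051-45522890, PRDX6 at chr1:173477335-173488815, GCLC at chr6:53497341-53545101, TXN at chr9:110243810-110256507, TXNRD1 at chr12:104215779-104350307, NQO1 at chr16:69709401-69726560 and HMOX1 at chr22:35381096-35394207.
GLRX, chr5:95822727-95822976, minus strand: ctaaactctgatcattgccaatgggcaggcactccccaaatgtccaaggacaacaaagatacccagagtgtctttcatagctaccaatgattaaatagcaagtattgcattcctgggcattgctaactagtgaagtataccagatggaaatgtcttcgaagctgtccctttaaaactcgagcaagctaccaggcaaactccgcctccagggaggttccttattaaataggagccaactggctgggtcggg
A match is a description of letters, and its absence from this window says nothing about the factor.

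The arrays of replicate 1 stood apart. Over 13329 tested probe sets, Pearson r of log2 signals was 0.957 to 0.982 among the 4 arrays of replicate 1, 0.815 to 0.869 between them and the other 8, and 0.867 to 0.982 among those 8. The 24 poly-A spike-in control probe sets had median signals of 2.58 to 7.41 on replicate 1 and 118 to 291 on the others. PAX3, part of the construct, did not separate the constructs there as labelled, so cells are named throughout by their labels. With 4-OHT, PAX3 (207680_x_at) read 58.9 in PAX3-FKHR-ER and 57.8 in pK1 cells of replicate 1, while replicates 2 and 3 read 92.7 and 73.1 in PAX3-FKHR-ER cells, against 41.5 and 49.96 in pK1 cells. In cells without 4-OHT it read 17.6 in PAX3-FKHR-ER and 49.4 in pK1 cells of replicate 1, but 98.9 and 105 against 41.5 and 30.6 in replicates 2 and 3. Results are therefore given with and without replicate 1. Of the muscle lineage markers, MYOD1 (197 to 2098), DES (85.6 to 862), CHRNA1 (245 to 2560) and ACTC1 (487 to 5601) passed the signal filter. So did MYOG (8.82 to 298) and MEF2C (30.5 to 217), whereas MYF5 and MYF6 did not. Of 8 measured markers of other cell types, 7 lay under it, and PECAM1 (8.08 to 84.3) passed.

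GLRX showed the largest 4-OHT change of the members, and it did so in replicates 2 and 3 of the PAX3-FKHR-ER cells. Probe set 206662_at read 816, 124 and 175 in replicates 1, 2 and 3 of PAX3-FKHR-ER cells with 4-OHT, against 947, 469 and 547 without. In pK1 cells it read 652, 278 and 511 with 4-OHT, against 1223, 212 and 430.0 without. The lowest signals of all 12 arrays were those of PAX3-FKHR-ER replicates 2 and 3 with 4-OHT, and in both constructs the groups of 3 overlapped. In bulk RNA, less GLRX RNA per cell and fewer cells that express it cannot be told apart.

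On the log2(signal + 16) scale, on which every change here is given, the 4-OHT change of 206662_at in the PAX3-FKHR-ER pairs was −0.21, −1.80 and −1.56 (mean −1.19, SD 0.86, n = 3). Pairs 2 and 3 alone averaged −1.68 (SD 0.17, n = 2), and signal with 4-OHT was lower by 3.47-fold and 2.95-fold on that scale. In pK1 pairs the changes were −0.89, 0.37 and 0.24 (mean −0.09, SD 0.69, n = 3), and pairs 2 and 3 averaged 0.31 (SD 0.09, n = 2). Of 8124 genes, each read by its probe set of highest mean signal, 13 had a lower change than GLRX in PAX3-FKHR-ER pair 2 and 12 in pair 3. GLRX was chosen with its change known, so these ranks describe it and support nothing further. The size of the pK1 pair 1 change, with the opposite sign to pK1 pairs 2 and 3, was larger than that of PAX3-FKHR-ER pair 1.

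The second GLRX probe set, 209276_s_at, read 432, 108 and 162 in PAX3-FKHR-ER cells with 4-OHT, against 351, 215 and 343 without. In pK1 cells it read 212, 127 and 280.4 with 4-OHT, against 408, 120.4 and 307 without. Its pair changes were 0.29, −0.89 and −1.01 in PAX3-FKHR-ER cells and −0.90, 0.07 and −0.12 in pK1 cells. The 2 probe sets thus had the same direction in PAX3-FKHR-ER pairs 2 and 3 and opposite directions in pair 1. Signal of 209276_s_at with 4-OHT in pairs 2 and 3 was lower by 1.86-fold and 2.01-fold. None of these signs changed under quantile normalization or equal array medians.

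**Figure D1:**
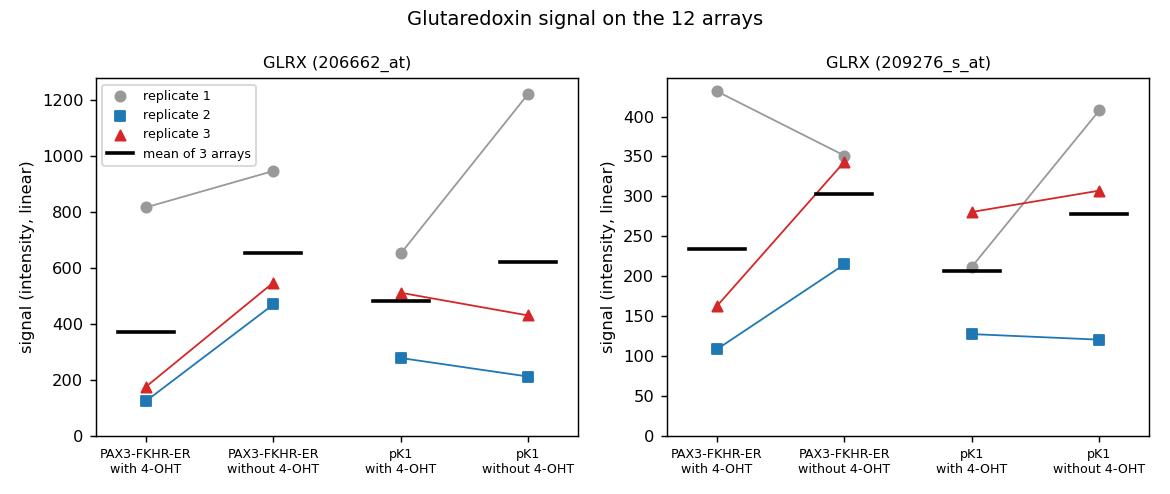
Signal (linear intensity) of the 2 GLRX probe sets on the 12 arrays, with points coloured by replicate number, lines joining cultures of the same construct and number, and bars at the mean of 3 arrays. For 206662_at, PAX3-FKHR-ER replicates 2 and 3 with 4-OHT, at 124 and 175, lie lowest, and the 4 replicate 1 arrays, at 652 to 1223, lie highest.

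Member signals also differed by replicate number. All 4 replicate 1 arrays read higher for 206662_at (652 to 1223) than the other 8 (124 to 547). Thioredoxin went the opposite way, with 1118 to 1299.6 on replicate 1 and 1530.4 to 2329 on the others for 208864_s_at. These were 2 of the 15 member probe sets (13.3%) with replicate 1 wholly apart, against 21.3% of all tested probe sets. NQO1, a quinone reductase, was highest on the replicate 3 arrays, which read 772 to 855 for 210519_s_at, against 394 to 594 on the other 8.

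TXN and its reductase showed no change of one sign over the PAX3-FKHR-ER pairs. TXN (208864_s_at) read 1118, 1893 and 2219 in PAX3-FKHR-ER cells with 4-OHT, against 1185, 2329 and 1855 without, which is −0.08, −0.30 and 0.26. In pK1 cells it read 1282, 1998 and 1546 with 4-OHT, against 1299.6, 1704 and 1530.4 without, which is −0.02, 0.23 and 0.01. TXNRD1 (201266_at) read 829, 616 and 786 in PAX3-FKHR-ER cells with 4-OHT, against 733, 694 and 994 without, and its changes were 0.17, −0.17 and −0.33. In pK1 cells TXNRD1 read 668, 609 and 610.2 with 4-OHT, against 838, 707 and 601 without, and the changes were −0.32, −0.21 and 0.02. The groups overlapped in all 4 of these comparisons. The second TXN probe set, 216609_at, gave −0.18, 0.04 and −0.30 in PAX3-FKHR-ER pairs.

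The peroxiredoxins reduce hydrogen peroxide; PRDX1 is recharged by thioredoxin, and PRDX6 by glutathione. PRDX1 (208680_at) read 3125, 5345 and 4413 in PAX3-FKHR-ER cells with 4-OHT, against 3556, 5642 and 4583 without. In pK1 cells PRDX1 read 3215, 4312 and 3336 with 4-OHT, against 3378, 3211 and 3975 without. Its PAX3-FKHR-ER pair changes were all slightly below 0, at −0.19, −0.08 and −0.05, although with equal array medians the second became 0.00. In pK1 cells they were −0.07, 0.42 and −0.25. PRDX1 read higher in PAX3-FKHR-ER than in pK1 cells of replicates 2 and 3, by 0.36 with 4-OHT and 0.51 without. In replicate 1 those differences were −0.04 and 0.07.

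PRDX6 (200844_s_at) read 1974, 2073 and 2621 in PAX3-FKHR-ER cells with 4-OHT, against 2243, 2289 and 2555 without. In pK1 cells PRDX6 read 1557, 2131 and 2212 with 4-OHT, against 1768, 1924 and 2450.1 without. The PAX3-FKHR-ER changes were −0.18, −0.14 and 0.04, and those of pK1 were −0.18, 0.15 and −0.15. A second PRDX6 probe set, 200845_s_at, gave 0.27, −0.21 and −0.30 in PAX3-FKHR-ER pairs and −0.18, 0.19 and 0.17 in pK1 pairs. The PRDX6 probe sets therefore differed in sign in pairs 1 and 3 of PAX3-FKHR-ER.

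The subunits of glutamate-cysteine ligase gave small or uneven changes. GCLM (203925_at) read 143, 130.2 and 413 in PAX3-FKHR-ER cells with 4-OHT, against 121, 199 and 419 without, and in pK1 cells 207, 242 and 246 with 4-OHT, against 134, 328 and 199.5 without. Its changes were 0.22, −0.55 and −0.02 in PAX3-FKHR-ER and 0.57, −0.41 and 0.28 in pK1 pairs, and pair 2 was lower with 4-OHT in both constructs. PAX3-FKHR-ER replicate 3 read highest with and without 4-OHT. GCLC (202923_s_at) lay between 78.3 and 120 on all 12 arrays. Its changes were −0.11, −0.11 and −0.02 in PAX3-FKHR-ER and −0.09, −0.15 and 0.10 in pK1 pairs. The second GCLC probe set, 202922_at, gave 0.10, −0.04 and −0.42 in PAX3-FKHR-ER pairs and 0.21, 0.05 and −0.06 in pK1 pairs.

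HMOX1 makes the enzyme that breaks down heme. Probe set 203665_at read 75.4, 165 and 116 in PAX3-FKHR-ER cells with 4-OHT, against 71.5, 142 and 110.3 without. In pK1 cells it read 62.2, 135 and 99.9 with 4-OHT, against 101, 136 and 109 without. The 4-OHT changes were 0.06, 0.19 and 0.07 in PAX3-FKHR-ER pairs (mean 0.11, SD 0.07, n = 3) and −0.58, −0.01 and −0.10 in pK1 pairs (mean −0.23, SD 0.31, n = 3). The pK1 pair 2 change turned to 0.06 under quantile normalization and 0.11 with equal medians. The groups overlapped in both constructs, and the largest of the 6 changes was in pK1 pair 1.

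NQO1 (210519_s_at) read 468, 586 and 789.6 in PAX3-FKHR-ER cells with 4-OHT, against 394, 594 and 855 without. In pK1 cells it read 426, 461 and 829 with 4-OHT, against 443, 473 and 772 without. The changes were 0.24, −0.02 and −0.11 in PAX3-FKHR-ER and −0.05, −0.03 and 0.10 in pK1 pairs. In PAX3-FKHR-ER pairs the other 2 probe sets had the same signs and differed in size: 201468_s_at gave 0.10, −0.47 and −0.30, and 201467_s_at gave 0.85, −0.03 and −0.15. In pK1 pairs 201468_s_at gave 0.15, 0.10 and −0.10, and 201467_s_at gave 0.80, −0.20 and 0.42, so its large pair 1 change was seen in both constructs. The sign was opposite to that of 210519_s_at in every pK1 pair for 201468_s_at, and in pK1 pair 1 for 201467_s_at.

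**Figure D2:**
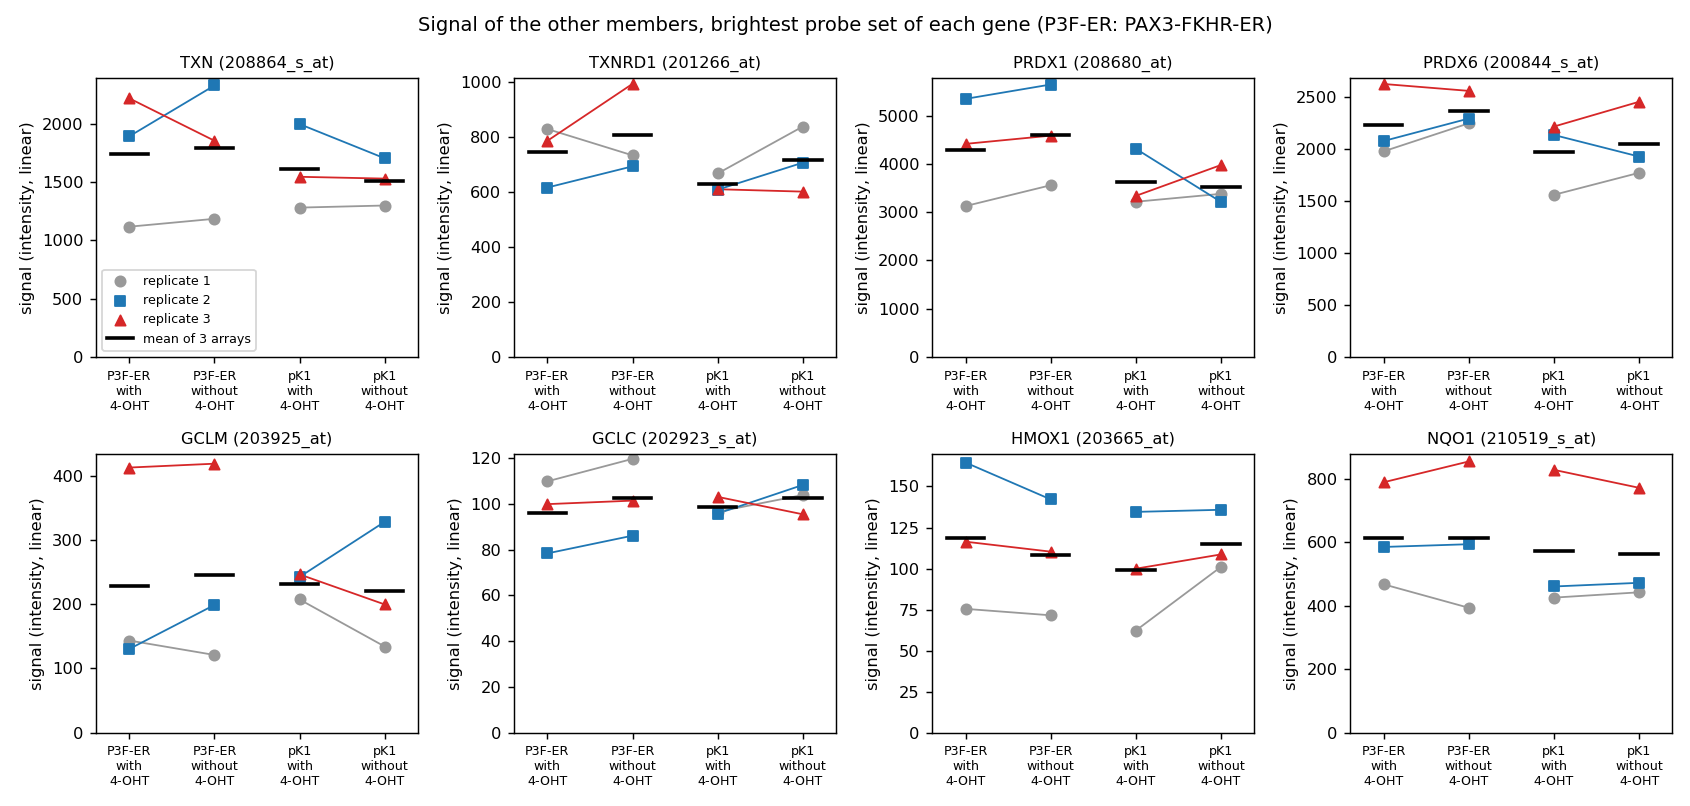
Signal (linear intensity, from 0) of the probe set of highest mean signal for the other 8 members, with PAX3-FKHR-ER shortened to P3F-ER, points by replicate number, lines joining cultures of the same construct and number, and bars at the mean of 3 arrays. HMOX1 reads 71.5 to 165 in PAX3-FKHR-ER cells, and NQO1 is highest in replicate 3 of each group.

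Across the 15 probe sets, 6 were lower with 4-OHT in PAX3-FKHR-ER pair 1, 13 in pair 2 and 12 in pair 3, with medians of 0.10, −0.14 and −0.15. In pK1 cells 11, 7 and 6 were lower, with medians of −0.08, 0.05 and 0.02. With equal array medians these counts became 6, 9 and 12 in PAX3-FKHR-ER cells and 6, 5 and 6 in pK1 cells, and with quantile normalization 6, 11 and 11, and 10, 7 and 7. Equal medians shifted the median change of all tested probe sets by 0.15 in pK1 pair 1 and 0.12 in pK1 pair 2, so changes in those pairs smaller than the shift have no settled sign. The shift in the other pairs was between −0.02 and 0.08. Probe sets of one gene are not independent, and the share of all probe sets that were lower in each pair was not counted. Nothing is therefore read from the counts of lower members. With 1 probe set per gene, the 9 members had PAX3-FKHR-ER medians of −0.08, −0.14 and −0.02, against 0.01, −0.04 and −0.02 over all 8124 genes. Their pK1 medians were −0.09, −0.01 and 0.02, against −0.09, −0.00 and 0.00. Outside GLRX, the 13 probe sets of the other members lay between −0.55 and 0.19 in PAX3-FKHR-ER pair 2 and between −0.42 and 0.26 in pair 3. GLRX thus lay outside the other members in these pairs, at −1.80 and −1.56.

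**Figure D3:**
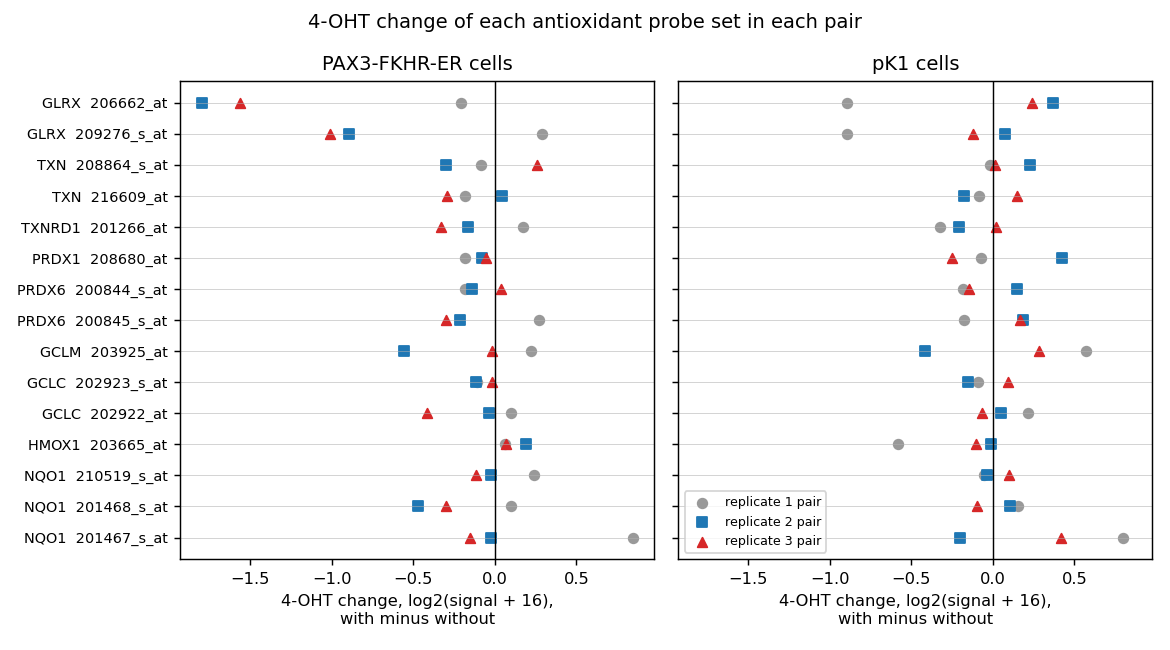
Change with 4-OHT (log2(signal + 16), with minus without) of each of the 15 probe sets in each pair of PAX3-FKHR-ER (left) and pK1 (right) cells, marked by replicate number. The GLRX points of PAX3-FKHR-ER pairs 2 and 3, at −0.89 to −1.80, lie left of all other points of that panel.

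Between constructs, GLRX (206662_at) differed by −0.74 with 4-OHT (PAX3-FKHR-ER minus pK1; −1.27 in replicates 2 and 3, 0.32 in replicate 1) and by 0.36 without 4-OHT (0.71 in replicates 2 and 3, −0.36 in replicate 1). For 206662_at both differences had the opposite sign in replicate 1. The second probe set, 209276_s_at, differed by 0.01 with 4-OHT (−0.47 in replicates 2 and 3, 0.97 in replicate 1) and by 0.23 without (0.46 in replicates 2 and 3, −0.21 in replicate 1). Its groups overlapped in replicates 2 and 3 as well. Matched by number, with 4-OHT it read 108 and 162 in PAX3-FKHR-ER cells of replicates 2 and 3, against 127 and 280.4 in pK1 cells. Without 4-OHT it read 215 and 343, against 120.4 and 307. In these replicates the 2 probe sets thus had the same direction, and the size of the construct difference of GLRX depends on the probe set.

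In the limma fit to 12 arrays, 0 of the 15 probe sets passed an adjusted p under 0.05 in any of 5 contrasts: 4-OHT in PAX3-FKHR-ER cells, 4-OHT in pK1 cells, the gap between these responses, and PAX3-FKHR-ER against pK1 without and with 4-OHT. In each of them 0% of 13329 probe sets passed. An unadjusted p under 0.05 was reached by 62, 72, 39, 277 and 267 probe sets, in that order. A fit to 12 arrays with a replicate block also called 0 members and 0% of probe sets, with 894, 916, 634, 981 and 931 at an unadjusted p under 0.05. The block was the pair of arrays of one construct and number for 4-OHT and the replicate number for the constructs. In replicates 2 and 3 with the block, both GLRX probe sets passed for 4-OHT in PAX3-FKHR-ER cells, where 1.4% of probe sets did, and 206662_at passed for the difference between the constructs' responses, where 0.0525% did. No member passed for 4-OHT in pK1 cells, where 0% did, or for the constructs without 4-OHT (0.0075%) or with it (0.158%). These calls are of genes chosen on these same values and support nothing further.

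Among all 12 arrays, 0 of the 15 had groups of 3 that did not overlap, where this held for 3.39% of probe sets for 4-OHT in PAX3-FKHR-ER, 4.26% for 4-OHT in pK1, 5.97% for the constructs without 4-OHT and 5.3% for the constructs with it. In replicates 2 and 3, 2 against 2 arrays did not overlap for 5 of the 15 probe sets in PAX3-FKHR-ER, all lower with 4-OHT (both of GLRX, PRDX6 200845_s_at, GCLC 202922_at and NQO1 201468_s_at), where 28.9% of probe sets did not overlap. In pK1 it was 1, PRDX6 200845_s_at, higher (18.2%). Between constructs it was 5 without 4-OHT, all higher in PAX3-FKHR-ER (GLRX 206662_at, TXN 208864_s_at, PRDX1, PRDX6 200845_s_at and NQO1 201468_s_at; 35.3%), and 4 with it, of which TXNRD1 and PRDX1 were higher and GLRX 206662_at and GCLC 202922_at lower (38.4%).

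Genes whose 6 pair changes were nearest to those of GLRX (206662_at), by mean absolute difference over the 6 pairs among 8123 other genes, were HEY1, a target of Notch signalling (0.247), MYMX, a muscle cell fusion peptide (0.273), the matrix protein gene TNC (0.274), MYH3, embryonic myosin heavy chain (0.304), and IGFBP3, which binds insulin-like growth factors (0.311). In PAX3-FKHR-ER pairs 2 and 3, HEY1 had changes of −1.44 and −0.94 and MYH3 of −1.89 and −1.22. These genes are given as a description of likeness only.

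Some muscle lineage markers also read lower in the pairs where GLRX did. MYOG, the gene of myogenin, read 53.0, 20.8 and 19.7 in PAX3-FKHR-ER cells with 4-OHT, against 13.4, 298 and 172 without. In pK1 cells MYOG read 35.6, 8.82 and 101 with 4-OHT, against 32.8, 10.3 and 94.9 without. Of the 6 markers past the signal filter, 2, 5 and 4 were lower with 4-OHT in PAX3-FKHR-ER pairs 1, 2 and 3, and 1, 4 and 4 in the pK1 pairs. Their summed signal in replicates 2 and 3 was 5837 to 6849 in PAX3-FKHR-ER cells with 4-OHT, against 6569 to 10515 without, and 1089.6 to 6294 in pK1 cells with 4-OHT, against 1199 to 6516 without. In replicate 1 it was 4111 in PAX3-FKHR-ER cells with 4-OHT, against 3346 without, and 5710.0 in pK1 cells with 4-OHT, against 4275 without. MYOD1, which commits cells to the muscle lineage, rose with 4-OHT in every PAX3-FKHR-ER pair, by 0.27, 0.47 and 0.69. In pK1 pairs it changed by 0.91, −0.16 and −0.18. Its direction in PAX3-FKHR-ER pairs 2 and 3 was thus opposite to that of GLRX. MYOD1 also differed between constructs in replicates 2 and 3, with 1111 to 1912 in PAX3-FKHR-ER cells and 197 to 367 in pK1 cells. In replicate 1 the direction was the opposite. There MYOD1 read 1216 in PAX3-FKHR-ER and 2098 in pK1 cells with 4-OHT, and 1006 and 1112 without. The part of these markers in the GLRX values was not tested.

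Other genes of the pathway came from 5 lists: glutathione synthesis and use (21 of 27 tested), thioredoxin fold and peroxide reduction (17 of 22), superoxide dismutases and catalase (8 of 8), NRF2 regulators and targets (26 of 33) and metallothioneins (6 of 7). In the fit to 12 arrays 0 of the 78 genes tested passed in any contrast by limma, where 0% of all 8124 genes did. An unadjusted p under 0.05 was reached by 1, for the constructs with 4-OHT, where 267 of 13329 probe sets reached it. In replicates 2 and 3 with the block, 1 of 78 (1.28%) passed for 4-OHT in PAX3-FKHR-ER cells, against 1.49% of all 8124 genes. This was MAFF, a small Maf protein that pairs with NRF2. It read 35.8, 141 and 201 in PAX3-FKHR-ER cells with 4-OHT, against 27.1, 55.0 and 91.4 without. In pK1 cells it read 138, 43.3 and 132 with 4-OHT, against 45.6, 52.6 and 119 without. By pair it changed by 0.26, 1.15 and 1.02 in PAX3-FKHR-ER cells and by 1.32, −0.21 and 0.13 in pK1 cells. The largest of these changes was thus in pK1 pair 1. The lists and the fit to replicates 2 and 3 were chosen with earlier results of these data known, so the call is a description. MAFF rose by 1.08 ± 0.19 (SE; adjusted p = 0.0305, limma) in that fit, but the difference from its change in pK1 cells, 1.12 ± 0.26 (SE; adjusted p = 0.206, limma), did not pass. In the fit to 12 arrays the MAFF change in PAX3-FKHR-ER cells was 0.81 ± 0.57 (SE; adjusted p = 1.00, limma). The difference from its pK1 change was 0.39 ± 0.81 (SE) in that fit and did not pass either.

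No other list gene passed in any of the 3 fits, and the values of single genes that follow are mean changes over pairs 2 and 3, with pair 1 given apart. In the fit to replicates 2 and 3, list medians for 4-OHT in PAX3-FKHR-ER cells were −0.10 for glutathione and −0.07 for thioredoxin fold. They were 0.04 for superoxide dismutases and −0.01 for NRF2, against −0.03 over all genes. In the fit to 12 arrays these medians were −0.03, −0.07, 0.05 and 0.01, against −0.02. For 4-OHT in pK1 cells of replicates 2 and 3 they were −0.04, 0.03, 0.14 and −0.01, against 0.004 over all genes. Between constructs 0 list genes passed. Of all genes, 0% passed on 12 arrays, and in replicates 2 and 3 0.0123% passed without 4-OHT and 0.172% with it. With 4-OHT the medians of PAX3-FKHR-ER minus pK1 in replicates 2 and 3 were −0.15 for glutathione, −0.20 for thioredoxin fold, −0.11 for superoxide dismutases, 0.04 for NRF2 and 0.11 for metallothioneins. On 12 arrays they were −0.11, −0.06, −0.11, 0.04 and 0.05. Over all genes the medians with 4-OHT were −0.02 in replicates 2 and 3 and −0.001 on 12 arrays. Without 4-OHT the list medians were −0.42, −0.07, 0.09, −0.16 and 0.82 in replicates 2 and 3, and −0.27, −0.09, 0.08, −0.08 and 0.37 on 12 arrays. Over all genes the medians without 4-OHT were 0.005 in replicates 2 and 3 and −0.02 on 12 arrays. The glutathione and metallothionein medians without 4-OHT were thus smaller when replicate 1 was kept.

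Of the glutathione genes, the cystine transporter SLC7A11 had a change of −0.40 in PAX3-FKHR-ER and −0.37 in pK1 cells. GSTM4 had −0.38 in PAX3-FKHR-ER and −0.17 in pK1 cells, and GSTO1 0.34 and 0.02. GPX1, a glutathione peroxidase, had 0.41 in PAX3-FKHR-ER and 0.07 in pK1 cells. In PAX3-FKHR-ER pair 1, SLC7A11 had 0.12, GSTM4 0.16 and GPX1 −0.12, each with the opposite sign, and GSTO1 had 0.35. In pK1 pair 1 SLC7A11 had −0.38, GSTM4 0.08, GSTO1 0.15 and GPX1 0.58. On 12 arrays the GPX1 change was 0.24 in PAX3-FKHR-ER and 0.24 in pK1 cells, so it did not differ between constructs there.

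In the thioredoxin fold list PRDX2 had −0.22 in PAX3-FKHR-ER and 0.11 in pK1 cells, and TXNDC9 −0.16 and −0.00. The methionine sulfoxide reductases had 0.16 (MSRA) and 0.19 (MSRB1) in PAX3-FKHR-ER cells, and 0.07 and 0.18 in pK1 cells. For MSRB1, PAX3-FKHR-ER pairs 2 and 3 differed in sign, at 0.50 and −0.12. In PAX3-FKHR-ER pair 1 the changes were −0.15 for PRDX2, 0.03 for TXNDC9, 0.11 for MSRA and −0.01 for MSRB1. In pK1 pair 1 they were −0.08, −0.12, −0.34 and 0.02, in that order.

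Of the third list, OXR1 had −0.27 in PAX3-FKHR-ER and 0.18 in pK1 cells, and catalase (CAT) −0.11 and 0.11. For CAT, PAX3-FKHR-ER pairs 2 and 3 differed in sign, at −0.39 and 0.17. CCS, the copper chaperone of superoxide dismutase, had 0.30 in PAX3-FKHR-ER and 0.56 in pK1 cells. PON3 had 0.83 in PAX3-FKHR-ER and 0.04 in pK1 cells, on dim signals of 8.23 to 61.6. In PAX3-FKHR-ER pair 1 PON3 had −1.33, so that its mean over all PAX3-FKHR-ER pairs was 0.11, and CCS had −0.35, OXR1 0.10 and CAT 0.12. In pK1 pair 1 PON3 had −0.33, CCS 0.03, OXR1 −0.03 and CAT −0.62.

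The metallothioneins, cysteine-rich metal binding proteins, had a median of −0.31 in replicates 2 and 3 of PAX3-FKHR-ER cells, against 0.40 in pK1 cells. In the fit to 12 arrays the medians were −0.13 and 0.35. None of the 6 passed for either. Of all genes, 0% passed on 12 arrays, and in replicates 2 and 3 1.49% passed in PAX3-FKHR-ER and 0% in pK1 cells. In PAX3-FKHR-ER cells MT1G had −0.66, MT1F −0.56, MT1H −0.34, MT1E −0.27, MT1X −0.25 and MT2A −0.20. Pairs 2 and 3 differed in sign for MT1H (0.41 and −1.10), MT1X (0.04 and −0.54) and MT2A (0.05 and −0.45). In PAX3-FKHR-ER pair 1 MT1G had −0.06, MT1F 0.48, MT1H 1.26, MT1E 0.31, MT1X 0.19 and MT2A −0.07. In pK1 cells MT1G had −0.02, MT1F 0.36, MT1H 0.82, MT1E 0.18, MT1X 0.49 and MT2A 0.45. There pairs 2 and 3 differed in sign for MT1G (0.40 and −0.45) and MT1E (0.39 and −0.04). In pK1 pair 1 MT1G had −0.18, MT1F 0.85, MT1H −0.08, MT1E −0.51, MT1X −0.17 and MT2A 0.40. Their medians by pair were 0.25, −0.03 and −0.53 in PAX3-FKHR-ER and −0.12, 0.50 and 0.03 in pK1 cells. Their probe sets can share signal between near-identical copies, so the genes cannot be told apart with certainty.

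**Figure D4:**
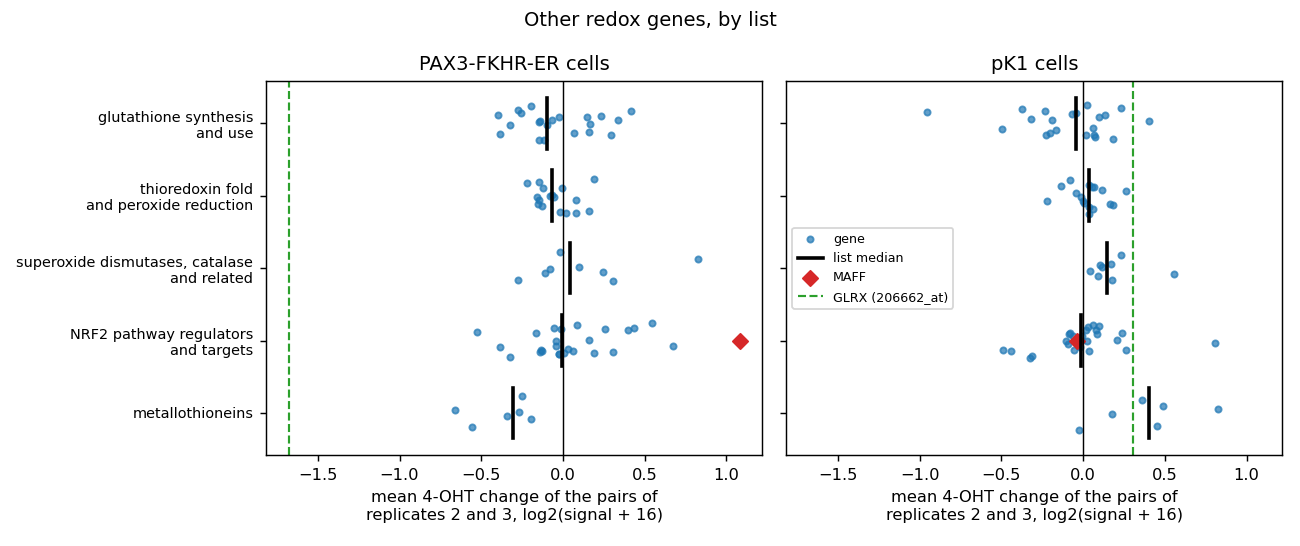
Mean 4-OHT change (log2(signal + 16)) over the pairs of replicates 2 and 3 of each tested gene of the 5 lists in PAX3-FKHR-ER (left) and pK1 (right) cells, with list medians as bars, MAFF as a diamond and GLRX (206662_at) as a dashed line. GLRX, at −1.68 in PAX3-FKHR-ER, lies lower than every list gene, and MAFF, at 1.08, lies higher.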

How the data were processed

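RNA of 12 cultures was measured on Affymetrix U133A arrays. The authors deposited 1 linear intensity per probe set and array. The submitters' processing notes name GCOS and MAS5 without versions. The trimmed mean was 150.043 to 150.05 on every array, so signals were not scaled again, and a change of total RNA per cell would be invisible. No detection calls were used. Of 22283 probe sets, 68 were controls; of the other 22215, 19065 had 1 symbol, 1043 several and 2107 none.

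Signals were taken as log2(signal + 16). Probe sets in the lowest 40% by mean signal (under 36.7) were dropped, leaving 13329. Group means were fitted with limma 3.58.1 in R 4.3.3 (lmFit, eBayes with trend), two-sided, with Benjamini-Hochberg adjustment over all tested probe sets. Gene counts used the probe set of highest mean signal. Tables and figures were made with Python 3.11.15, pandas 2.3.3 and matplotlib 3.10.9, and the fit was checked on simulated data.

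The members, the lists and the fit to replicates 2 and 3 were chosen with earlier results of these data known. Named list genes were up to 3 each way past the threshold, or else the 2 each way with the largest mean change in PAX3-FKHR-ER pairs 2 and 3. By this rule only MT1G and MT1F of the metallothioneins were named, and the other 4 were added so that the list is whole. In the fits with a block, the block was the pair of arrays of one construct and number for the 4-OHT contrasts and the replicate number for the constructs. NFE2L2, KEAP1 and AKR1C3 were named after their values were seen. Deviations from group means of same-numbered arrays with and without 4-OHT correlated at 0.85, 0.70 and 0.71 in PAX3-FKHR-ER cells and 0.79, 0.79 and 0.82 in pK1 cells, so the numbers were taken to pair the 4-OHT samples. Between constructs they correlated at 0.57, 0.18 and 0.35 with 4-OHT and 0.69, 0.15 and 0.46 without.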

Additional observations from a re-analysis of the deposited data

Results flagged for a closer look

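HMOX1 (203665_at) was higher with 4-OHT in every PAX3-FKHR-ER pair (0.06, 0.19 and 0.07) and lower in every pK1 pair (−0.58, −0.01 and −0.10). The mean changes differed by 0.34 on the log2(signal + 16) scale, but HMOX1 was among the 15 probe sets of which limma called 0 for the difference of responses in the fits to 12 arrays, with and without the block, and it was not called in replicates 2 and 3. Such opposite signs were seen for 416 of 13329 probe sets (3.12%). The pK1 pair 2 change became 0.06 under quantile normalization and 0.11 with equal array medians, so the split of signs was lost there.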

How the results depend on the processing

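The 11 alternative settings and leaving out any 1 of the 12 arrays gave 0 probe sets and 0 list genes past the threshold in every contrast run, as did the fit to 12 arrays, except in the 2 fits to replicates 2 and 3. The setting with only the groups of the contrast was not run for the difference of responses, which uses all groups. With the replicate block these called 186 probe sets (106 higher, 80 lower) for 4-OHT in PAX3-FKHR-ER, 7 (4 higher, 3 lower) for the difference of responses, 1 for the constructs without 4-OHT and 21 (17 higher, 4 lower) with it. The NRF2 list had 1 gene called in that fit. Without the block they called 1 for the constructs without 4-OHT and 13 (11 higher, 2 lower) with it. With the replicate block on 12 arrays, 0 were called. Leaving out 1 array gave 0 to 0. With the block on 8 arrays only 2 (4-OHT) or 3 (constructs) residual degrees of freedom remained, so much of the spread was borrowed across probe sets.

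The GLRX change with 4-OHT in PAX3-FKHR-ER cells lay between −1.97 and −0.54 over 24 alternatives, with no change of sign, and its pK1 change between −0.66 and 0.56, with 5 changes of sign. PAX3-FKHR-ER minus pK1 for GLRX lay between −1.52 and 0.01 with 4-OHT and between −0.21 and 1.01 without, with 1 change of sign each. Of 1056 member values, 1019 moved by less than 1 SD of the replicates and 108 changed sign. Many of these values could not move. Another signal filter, no intensity trend, only the groups of the contrast, or the replicate block on all arrays leaves a change as it was. A left-out array also leaves the contrasts that do not use it as they were. The 24 alternatives for GLRX include such settings too. Counts out of 1056 and out of 24 therefore overstate how stable the changes are. What limits the precision was not tested, and dim probe sets have their changes understated by the constant added.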

Other observations

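NFE2L2, the gene of NRF2, read 513 ± 26.7 in PAX3-FKHR-ER cells with 4-OHT, against 531 ± 26.3 without, and 546 ± 228 in pK1 cells with 4-OHT, against 472 ± 167 without (SD, n = 3 each). KEAP1, which targets NRF2 for degradation, read 396 ± 69.6 in PAX3-FKHR-ER cells with 4-OHT, against 389.7 ± 66.3 without. AKR1C3, an aldo-keto reductase of the NRF2 list, read 1587 to 2552 on the replicate 1 arrays, 39.3 to 184 on replicate 2 and 164 to 526 on replicate 3. These 3 genes were named after their values were seen, and none passed the threshold in any of the 5 contrasts or 3 fits. The smallest adjusted p of AKR1C3 was 0.0734 (limma), for 4-OHT in PAX3-FKHR-ER cells of replicates 2 and 3, where its change was 0.67.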
